A study of Mus musculus with 24 samples.

Results

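A mouse muscle can become larger because a brake on its growth is missing, or because it has to carry more load. The data set both routes directly against each other: 6 plantaris muscles of untreated myostatin knockout mice (genotype Mstn-/-) against 6 plantaris muscles of overloaded wildtype mice, 12 of the 24 arrays of the series. They were chosen by their labels (Mstn-/- without overload, and wildtype with overload), and no measured value entered that choice. Each array holds the RNA of 1 plantaris of 1 mouse. The overloaded mice were operated at 3 months of age under pentobarbitone anaesthesia: the soleus and most of the gastrocnemius were taken out in both legs, so that the plantaris had to do their work. The control mice had no operation, so the untreated Mstn-/- group had neither the anaesthetic nor the wound. The age given is 3 months for all 24 arrays, those of the untreated Mstn-/- mice included. The other 12 arrays are 6 untreated wildtype and 6 overloaded Mstn-/- muscles. They entered the shared estimate of the spread between arrays, and are quoted only as reference levels.

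The pair of groups differs in 2 things at once, the genotype and the operation with its overload, and these cannot be told apart in the direct comparison. The sources used here do not say how long the overload lasted, which part of Mstn the knockout lacks, or the strain and sex of the mice. Muscle mass, force and fibre size are not among the values analysed here, so every statement below is about RNA levels in whole muscle. In such bulk tissue, fewer cells of a type and less RNA per cell cannot be told apart.

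Myostatin is a secreted protein of the TGF-beta family, made by muscle fibres, that limits muscle size. It binds activin type II receptors, which act through type I receptors and the Smad2 and Smad3 proteins, and follistatin binds and blocks it. Animals that lack it have larger muscles with more fast, glycolytic fibres. Overload by removal of synergist muscles is a classical way to make the plantaris grow: it is known to bring inflammation and matrix remodelling, activation of satellite cells, and a shift towards slower fibres.

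The deposited values were probe-set intensities after RMA (robust multi-array averaging), and levels are given here as log2 intensities. A difference of 1 on this scale is a 2-fold difference. A probe set's intensity also depends on its probes, so levels are compared only between groups and never between genes. Of 34760 probe sets, 21640 carried exactly 1 gene symbol and stood for 19937 genes, and 14499 of these passed the filter on low intensity, which asked for at least 1 of the 4 group means above 98.9. Median intensities of the 24 arrays lay between 139 and 147. A gene passed the test when its adjusted p in limma's moderated test (Benjamini-Hochberg over the 14499 genes) was under 0.05. Where the 95% interval of a difference lay wholly within 1.2-fold either way, the gene is called alike in the 2 groups.

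Markers of skeletal muscle were bright in both groups, with a mean over the list of 13.25 to 13.32 on the untreated Mstn-/- arrays and 12.82 to 13.12 on the overloaded wildtype arrays, which do not overlap. By the test 8 of the 12 markers were higher in Mstn-/- (34.5% of all genes) and 2 in overloaded wildtype muscle (31.5%), and 5 were alike, 3 of which also passed the test. Acta1, the skeletal muscle actin, was at 13.86, 14.02 and 14.04 (lowest, median and highest array) in untreated Mstn-/- and at 13.95, 14.02 and 14.09 in overloaded wildtype muscle, and was alike. Neb, which encodes the giant thin-filament protein nebulin, was only 1.09-fold higher in Mstn-/- and also alike. These levels lie close to the top of the intensity scale. On the first principal component, which held 72.7% of the variance over all arrays, replicate 3 of the overloaded wildtype group stood apart from its 5 group members, at 54.8 against 34.5 to 39.8. Without that array, the 15 leading genes in each direction still passed the test with folds 0.862 to 1.03 times those with it. The medians of 50 of 50 gene lists kept their sign, and the largest move of a list's median was 0.28.

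The region between the imprinted genes Dlk1 and Dio3 separated the groups in an unusual way, and its sequences come first. From the maternal chromosome it gives long non-coding RNAs (Meg3 and Rian among them), small nucleolar RNAs and a long row of microRNAs, and from the paternal chromosome Dlk1, Rtl1 and Dio3. A microRNA pairs with its target RNAs mainly through its seed, bases 2 to 8 of the mature strand, printed below in capitals. The first 8 mature strands belong to the 4 hairpins of the region with the largest differences among those that passed the intensity filter. All 4 had untreated Mstn-/- means below the level of that filter and passed it only through overloaded groups. The size of their differences is thus uncertain. The 8 strands all have different seeds. They are from RefSeq on GRCm38.p6 and all lie on the plus strand of chromosome 12, from miR-380-5p at chr12:109711806-109711827 to miR-382-3p at chr12:109733819-109733840.
mmu-miR-380-5p: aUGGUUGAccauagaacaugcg
mmu-miR-380-3p: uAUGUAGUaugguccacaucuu
mmu-miR-323-5p: aGGUGGUCcguggcgcguucgc
mmu-miR-323-3p: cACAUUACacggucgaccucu
mmu-miR-329-5p: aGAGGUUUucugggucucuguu
mmu-miR-329-3p: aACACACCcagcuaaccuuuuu
mmu-miR-382-5p: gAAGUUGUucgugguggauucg
mmu-miR-382-3p: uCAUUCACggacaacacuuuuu

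Among the 76 mature strands of the measured hairpins there were 74 distinct seeds, and only 2 seeds occurred in more than 1 strand. The pairs that share one are shown for that reason.
mmu-miR-379-3p: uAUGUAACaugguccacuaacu
mmu-miR-411-3p: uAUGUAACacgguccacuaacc
mmu-miR-376c-5p: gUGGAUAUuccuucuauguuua
mmu-miR-376b-5p: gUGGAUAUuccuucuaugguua

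The hairpins were higher in overloaded wildtype than in untreated Mstn-/- muscle almost throughout the region. RefSeq lists 61 hairpins there and 40 had a probe set. Only 25 of the 40 passed the intensity filter, and a dim hairpin could pass it through the group where it was high, so the 40 were counted in a fit without the filter. In that fit 38 of 40 were higher in overloaded wildtype muscle (24.3% of all genes in the same fit), 0 were lower and 2 did not pass. The groups of arrays did not overlap, with the higher level in overloaded wildtype muscle, for 37 of the 40 (18.6% of all genes without the filter), and the median difference was 2.38-fold. The 256 other microRNA hairpins on the array gave 37 higher in overloaded wildtype and 47 higher in Mstn-/- muscle, with a median difference of 0.03. The region was chosen for description after its values had been seen and its hairpins share 1 chromosomal domain, so they are not independent of each other. The probe sets read hairpin or precursor RNA, not the mature strands printed above.

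Single arrays showed the same separation. The mean log2 intensity over the 40 hairpins was 5.88 to 5.98 on the 6 untreated Mstn-/- arrays and 6.83 to 7.75 on the 6 overloaded wildtype arrays, with no overlap. Untreated wildtype arrays lay at 5.74 to 5.88 and overloaded Mstn-/- arrays at 6.85 to 7.70. The highest overloaded wildtype array was replicate 4; without it the median difference was 2.13-fold, and without any one of the other arrays of the 2 groups at most 2.49-fold. In 26 of the 40 hairpins the untreated Mstn-/- mean lay below the low-intensity level, and in 16 both means did, where the size of a fold is uncertain. Of 14 hairpins with both means above that level, 13 passed the test, all higher in overloaded wildtype muscle.

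Longer RNAs of the region were higher in overloaded wildtype muscle too, by unequal amounts. Meg3 was at 9.53, 9.98 and 10.24 in untreated Mstn-/- and at 11.94, 12.12 and 12.57 in overloaded wildtype muscle, a 4.75-fold difference (adjusted p = 2.1e-13). The groups did not overlap. Dlk1, a membrane protein of the Delta and Notch type made by regenerating muscle, was 4.54-fold higher in overloaded wildtype muscle, at 9.58, 10.07 and 10.94 against 7.75, 8.05 and 8.18. Rian was 4.25-fold higher, with its Mstn-/- level below the low-intensity level. Rtl1 was only 1.34-fold higher and Dio3, dim in both groups, 1.15-fold, and for both the arrays overlapped. The smallest differences among the hairpins were those of Mir666, which did not pass the test, and Mir299a.

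**Figure D1:**
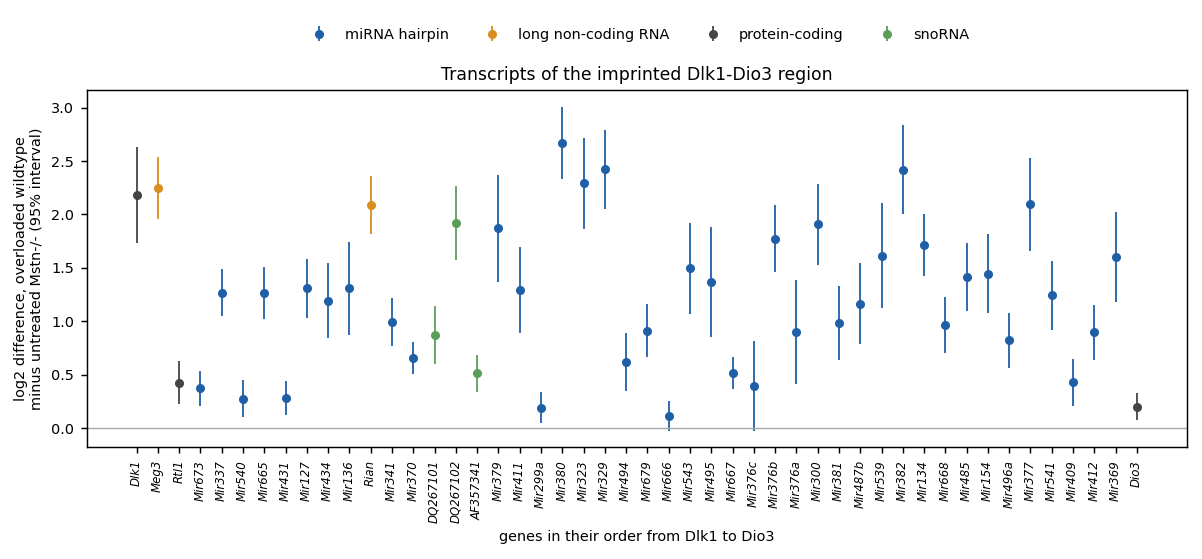
Log2 difference of overloaded wildtype minus untreated Mstn-/- muscle (y axis, point with 95% interval, 6 arrays a group, no intensity filter) for the measured transcripts in their order from Dlk1 to Dio3 (x axis). All points lie above 0, from just above it for Mir666 to 2.67 for Mir380.

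Of the list of imprinted growth genes 13 of 15 were higher in overloaded wildtype muscle, but 3 of these are Meg3, Dlk1 and Rian. Outside the region 10 of 12 were higher there and 1 in Mstn-/-, with a median of -0.77 (Mstn-/- minus overload). Over all genes, 66% passed the test in either direction, 31.5% with the higher level in overloaded wildtype muscle. Mest, an imprinted hydrolase gene, had a 32.1-fold difference, at 11.87, 12.18 and 12.32 against 6.95, 7.11 and 7.46. Plagl1, an imprinted zinc-finger regulator, was 7.21-fold higher. Slc38a4, an imprinted amino acid transporter, was the member that went the other way, at 11.32, 11.37 and 11.41 in Mstn-/- and 8.96, 9.45 and 9.56 in overloaded wildtype muscle, 4.13-fold higher in Mstn-/-.

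Untreated Mstn-/- and overloaded wildtype muscle had largely different RNA. Against the same 6 untreated wildtype arrays, 21.3% of genes passed the test in untreated Mstn-/- and 65.9% in overloaded wildtype muscle. On the first principal component untreated Mstn-/- arrays (-34.6 to -26.8) overlapped untreated wildtype arrays (-34.0 to -23.5). The second component, with 8.42% of the variance, held them apart, at -9.14 to -6.35 and 4.32 to 18.9. A higher level in Mstn-/- here means higher than in overloaded wildtype muscle only. Of 14499 genes, 9568 (66%) passed the test, 4996 (34.5%) with the higher level in untreated Mstn-/- and 4572 (31.5%) with the higher level in overloaded wildtype muscle. With the array medians made equal, the share of these genes that were higher in Mstn-/- was 64.1% in place of 52.2%. Large differences leaned towards overload: 930 genes (6.41%) were at least 2-fold higher there, against 435 (3%) in Mstn-/- muscle. At 4-fold or more the counts were 169 and 37. The arrays of the 2 groups did not overlap for 6871 genes (47.4%). Another 4318 genes (29.8%) were alike, 398 of them with a small difference that still passed the test. For 1011 genes neither the test nor the interval gave an answer. The shares over all genes, 34.5%, 31.5% and 29.8% alike, are the background for every list count given below. The spread between arrays was larger in the operated group, with a median SD over genes of 0.124 against 0.091.

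Mstn itself, the gene the knockout targets, had less signal in both groups than in untreated wildtype muscle. Its level was 8.53, 8.87 and 9.33 in untreated Mstn-/- muscle and 8.19, 8.37 and 8.63 in overloaded wildtype muscle, with overlap. The Mstn-/- mean was the higher one, 1.44-fold (adjusted p = 6.4e-04). Untreated wildtype muscle lay at a mean of 10.25, so the probe set's signal was 2.51-fold lower in Mstn-/- and 3.62-fold lower in overloaded wildtype muscle; these 2 comparisons share the untreated wildtype arrays. Where the probes lie relative to the deleted part is not known here, so the residual signal does not check the genotype labels.

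Myostatin and activin signalling was divided, with 4 of 5 receptors higher in Mstn-/- muscle and the other, Acvr1c, not passing the test at -0.03. Of 20 tested genes of the pathway, 9 were higher in Mstn-/- (34.5% of all genes) and 6 in overloaded wildtype muscle (31.5%), with a median of 0.06. The list as a whole was thus not far from the shares over all genes. The genes alike were 5, of which Bambi, a decoy receptor, also passed the test at -0.14. Acvr1b, a type I receptor for activins and myostatin, was at 9.11, 9.31 and 9.51 in Mstn-/- and 8.15, 8.26 and 8.40 in overloaded wildtype muscle, 2.07-fold higher in Mstn-/- (adjusted p = 4.2e-11). The type II receptors Acvr2a and Acvr2b were 1.69-fold and 1.63-fold higher in Mstn-/-, both without overlap. Against untreated wildtype muscle their values were not alike: Acvr2a was higher in Mstn-/- by 0.62 and did not pass the test after overload (-0.14), whereas Acvr2b was lower after overload by -0.68 and did not pass the test in Mstn-/- (0.03). The difference between these 2 patterns was not tested.

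Of the extracellular inhibitors, Fst was higher in overloaded wildtype muscle, Wfikkn2 was higher in Mstn-/- by 0.96, and Fstl3 and Wfikkn1 were alike. Fst, follistatin, was at 9.002, 9.19 and 9.46 in overloaded wildtype muscle against 7.88, 8.08 and 8.26 in Mstn-/-, 2.19-fold (adjusted p = 2.1e-11). Fstl1, a secreted follistatin-like glycoprotein, is not counted here as an inhibitor. It was at 12.54, 12.61 and 12.90 in overloaded wildtype muscle against 9.29, 9.49 and 9.91, 8.73-fold. For both the groups lay far apart. Inhba, the activin A subunit, and Smad3, which carries the signal to the nucleus, were each 1.38-fold higher in overloaded wildtype muscle.

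Most of the TGF-beta list was higher in overloaded wildtype muscle: 14 of 15 tested ligands, receptors and activators, 0 the other way, with a median of -0.92. Tgfbr1, the type I receptor, was counted with myostatin and activin signalling instead. It went the other way, higher in Mstn-/- by 0.39. Tgfbr2, the type II receptor, was at 10.63, 10.65 and 10.92 against 9.11, 9.20 and 9.43, 2.79-fold (adjusted p = 1.3e-14). Lrrc32, which holds latent TGF-beta at the cell surface, was 2.85-fold higher and Ltbp3, which anchors latent TGF-beta in the matrix, 2.36-fold. Only Tgfb2 of the 15 did not pass, and it was alike in the 2 groups.

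BMP signalling as a list lay near the shares over all genes. Of 22 tested genes 7 were higher in Mstn-/- (34.5% of all genes), 6 in overloaded wildtype muscle (31.5%), and 8 were alike (29.8%). The median was -0.03 and turned positive when the arrays were scaled again in either way. Bmp4 was at 9.40, 9.44 and 9.67 in Mstn-/- against 8.10, 8.31 and 8.54, 2.23-fold higher, and Bmp6 was 1.44-fold higher. Id2, a target gene of BMP signals, was 3.4-fold higher in overloaded wildtype muscle. Bmp1, a protease that trims procollagens despite its name, was 3.83-fold higher there.

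The 15 genes with the largest differences towards overload ran from 11.2-fold to 36.2-fold. C1qtnf3, a secreted protein of the complement C1q and tumour necrosis factor family, was at 11.79, 12.03 and 12.35 in overloaded wildtype and 6.52, 6.91 and 7.03 in Mstn-/- muscle, 36.2-fold (log2 difference 5.18, SE 0.19, adjusted p = 2.4e-17). Postn, the matrix protein periostin, was at 13.18, 13.38 and 13.56 against 8.12, 9.28 and 9.55, 20.1-fold. Sfrp2 and Sfrp1, secreted antagonists of Wnt signals, were 16.6-fold and 11.8-fold higher. The groups did not overlap for any of the 15, which the rule for choosing them required. The others were Mest, Myh3, Cthrc1, Tnni1, Tnc, P4ha3, Ccl8, Wfdc17, Vcan, Col12a1 and Col8a1, with differences of 11.2-fold to 32.1-fold. P4ha3, a collagen prolyl hydroxylase subunit, and Ccl8, a chemokine, were below the low-intensity level in Mstn-/- muscle, so the size of their folds is uncertain.

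The 15 genes with the largest differences towards Mstn-/- muscle ran from 5.06-fold to 28.5-fold. Mettl21e, a protein methyltransferase of skeletal muscle, was at 9.36, 10.06 and 10.49 in Mstn-/- and 5.01, 5.12 and 5.54 in overloaded wildtype muscle, 28.5-fold, with the overloaded level below the low-intensity level. Untreated wildtype muscle lay between, at a mean of 7.15. Mss51, a mitochondria-associated zinc-finger gene that TGF-beta family signals are known to affect, was at 12.62, 12.71 and 12.78 against 9.22, 9.58 and 9.64, 9.07-fold (adjusted p = 1.5e-15). Odf3l2, a relative of a sperm-tail gene, was 16-fold higher and lay at a mean of 8.60 in untreated wildtype muscle, between the 2 groups.

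Several of the others act on amino acids, glucose or glycogen. Gpt2, an alanine transaminase, was 6.86-fold higher, and Pfkfb3, which makes a strong activator of glycolysis, was 5.4-fold higher. Ppp1r3c, which brings a phosphatase to glycogen, was at 11.54, 11.92 and 12.01 against 8.56, 9.56 and 9.87, 5.32-fold. Car14, a carbonic anhydrase, was 8.27-fold higher, Timp4, an inhibitor of matrix proteases, 6.85-fold, Mylk4, a kinase of the myosin light chain kinase family, 6.42-fold, and Fkbp5, a glucocorticoid-induced chaperone partner, 5.06-fold. Adhfe1 and Dhrs7c, both dehydrogenase-family genes, were 5.66-fold and 5.23-fold higher. Inmt, Tspan8 and Gdap1, at 9.79-fold, 6.09-fold and 5.35-fold, were below the low-intensity level in overloaded wildtype muscle.

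**Figure D2:**
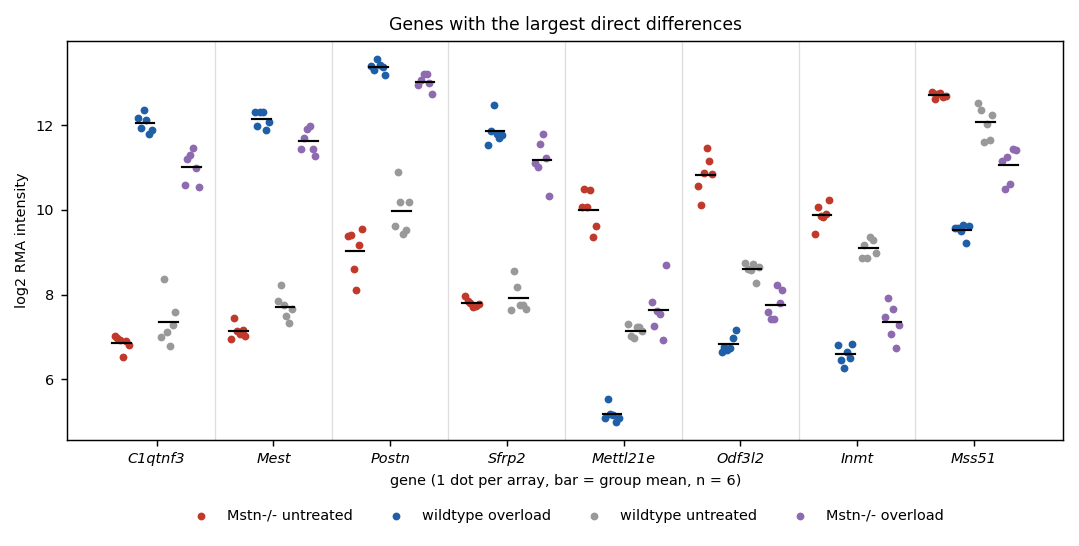
Log2 RMA intensity (y axis) of 8 genes with large direct differences (x axis), 1 dot per array and a bar at the mean of 6 arrays, for all 4 groups. The overloaded wildtype dots lie above 11 for C1qtnf3, Mest, Postn and Sfrp2 and below those of untreated Mstn-/- muscle for Mettl21e, Odf3l2, Inmt and Mss51.

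Interstitial collagens had the largest median of the lists plotted by their members. Of 19 interstitial collagen genes tested, 18 were higher in overloaded wildtype muscle, 0 were higher in Mstn-/- and 1 was alike; the median was -1.95. Col3a1 was at 11.88, 12.004 and 12.31 against 8.77, 8.93 and 9.44, 8.2-fold (adjusted p = 2.6e-17). Col1a1 was 6.73-fold and Col6a3 6.14-fold higher. Col6a5 was the member that was alike, at 7.14 to 7.61 against 7.21 to 7.42; with the mean of all its probe sets it passed the test at -0.22. Between Mstn-/- and untreated wildtype muscle, Col3a1, Col1a1 and Col6a3 did not pass the test, at -0.13, -0.14 and 0.00.

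Glycoproteins of the matrix followed the collagens, with 29 of 31 tested genes higher in overloaded wildtype muscle, 0 higher in Mstn-/- and a median of -1.63. Mfap4, a microfibril protein, was 8.25-fold higher and Thbs3, a thrombospondin, 4.85-fold. Tnc, tenascin-C, which is made at sites of load and repair, was at 10.81, 11.25 and 11.73 against 7.33, 7.49 and 7.76, 13.8-fold. Its groups lay more than 3 log2 units apart. Of 24 proteoglycan and hyaluronan genes, 21 were higher after overload, among them Vcan (versican, 11.6-fold), Aspn (asporin, 7.84-fold) and the hyaluronan receptor Cd44 (5.15-fold). Omd, osteomodulin, was the 1 higher in Mstn-/- muscle, 1.4-fold and dim.

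The basement membrane was less uniform: 9 of 15 genes were higher in overloaded wildtype muscle, 0 in Mstn-/- and 6 were alike, with a median of -0.81. Lamb1, a laminin chain of many tissues, was 3.6-fold higher. Lama2 and Lamb2, the laminin chains typical of the adult fibre, did not follow it. Lama2 lay at 9.86, 10.02 and 10.16 in overloaded wildtype and 9.86, 9.98 and 10.17 in Mstn-/- muscle, with an interval of -0.13 to 0.13. Lamb2 was alike too, although it passed the test at 0.16 with the array medians made equal.

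Genes that process the matrix were also higher in overloaded wildtype muscle. Of 22 genes for collagen processing and cross-linking 17 were higher there and 1 was higher in Mstn-/- (median -1.17). Loxl1, a cross-linking oxidase, was 4.68-fold higher and Serpinh1, the collagen chaperone, 4.02-fold. Pcolce2, an enhancer of procollagen cleavage, was the exception, 1.68-fold higher in Mstn-/- muscle. Of 33 matrix proteases and inhibitors 26 were higher in overloaded wildtype and 2 in Mstn-/- muscle (median -0.70). Mmp14, a membrane-bound protease, was at 11.26, 11.47 and 11.96 against 8.54, 8.57 and 8.80, 7.48-fold, and Mmp2, which it activates, was 4.14-fold higher. Adam12, a protease of regenerating muscle, was 4.57-fold higher, and Timp4 (above) was the large exception.

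Tendon markers were all higher in overloaded wildtype muscle, 12 of 12, with a median of -1.08. Tnmd, tenomodulin, was at 11.75, 12.11 and 12.45 against 8.93, 9.37 and 9.60, 7.07-fold, and Comp, a cartilage and tendon matrix protein, was 4.05-fold higher. How much tendon each dissected muscle carried is not known, and its part in the matrix results was not tested. Of the cartilage and bone markers 4 of 6 tested were higher in overloaded wildtype muscle and 1 in Mstn-/-. Only these 6 of 11 with a probe set were tested. A dim marker could pass the filter through the group where it was high, so the count does not show a direction.

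**Figure D3:**
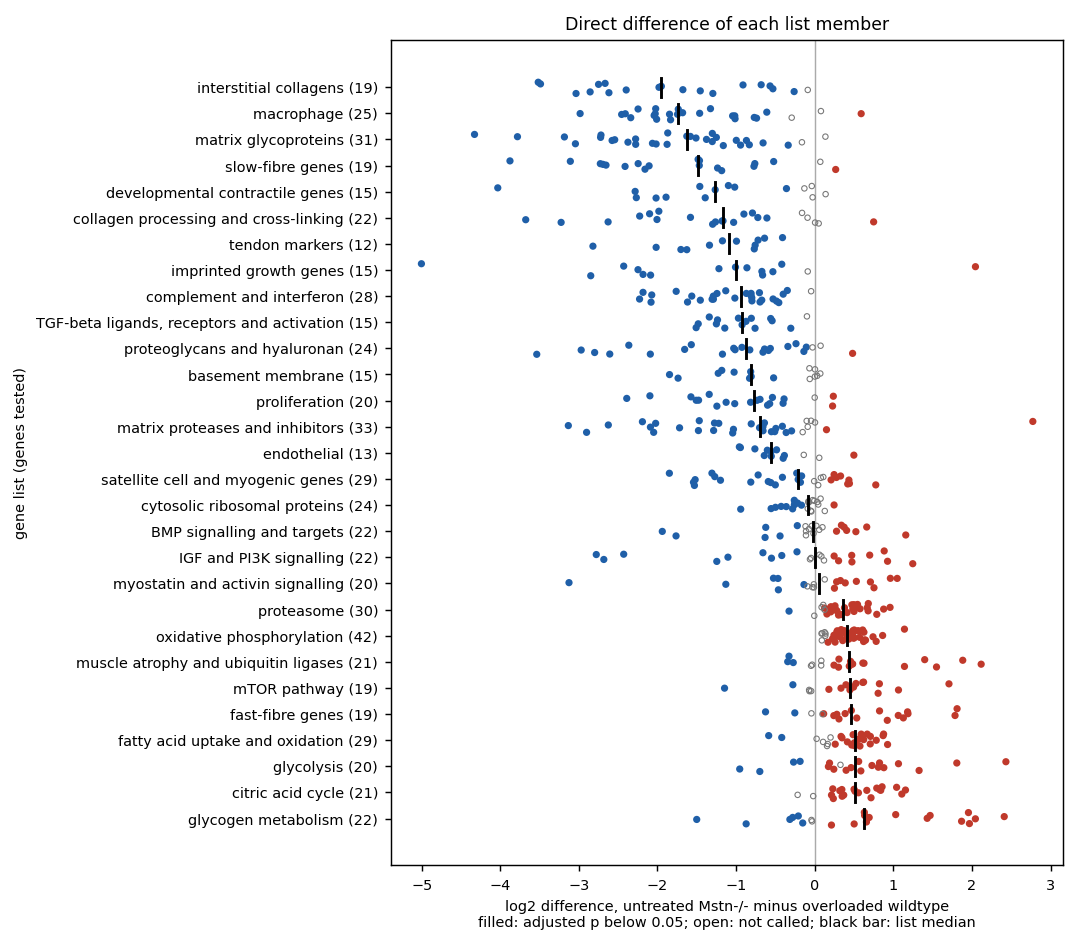
Log2 difference of untreated Mstn-/- minus overloaded wildtype muscle (x axis) for each tested member of 29 gene lists (y axis, number of genes tested in brackets), filled where the adjusted p was below 0.05; the black bar is the list's median. The medians run from -1.95 for interstitial collagens to 0.63 for glycogen metabolism.

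Fibre-type genes divided along slow and fast lines. Of 19 slow-fibre genes 17 were higher in overloaded wildtype muscle and 1 in Mstn-/-, with a median of -1.48. Of 19 fast-fibre genes 15 were higher in Mstn-/- and 2 in overloaded wildtype muscle, with a median of 0.47.

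Slow troponin I and troponin C had the largest differences of the slow-fibre list. Tnni1, slow troponin I, was at 11.04, 11.38 and 11.75 in overloaded wildtype and 7.35, 7.47 and 7.76 in Mstn-/- muscle, 14.7-fold (adjusted p = 7e-16). Tnnc1, the troponin C of slow and cardiac muscle, was at 10.49, 10.71 and 11.32 against 7.41, 7.61 and 8.03, 8.63-fold. Tnnt1, slow troponin T, was 6.47-fold higher. For all of them the groups were clearly apart, and untreated wildtype muscle lay between, at a mean of 9.29 for Tnni1 and 9.22 for Tnnc1.

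Since the slow troponin I and troponin C genes moved together in these samples, the 250 bases before their RefSeq start sites are shown (GRCm38.p6, plus strand, 5′ to 3′), the first of 2 listed windows of Tnni1 at chr1:135799171-135799420 and that of Tnnc1 at chr14:31208062-31208311. Capitals mark the E-box CANNTG, the letters that myogenic factors of the MyoD family can bind.
Tnni1: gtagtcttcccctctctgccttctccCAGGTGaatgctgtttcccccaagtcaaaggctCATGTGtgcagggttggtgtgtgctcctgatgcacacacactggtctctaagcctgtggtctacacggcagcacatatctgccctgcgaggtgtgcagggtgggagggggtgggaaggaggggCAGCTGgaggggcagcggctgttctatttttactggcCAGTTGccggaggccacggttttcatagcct
Tnnc1: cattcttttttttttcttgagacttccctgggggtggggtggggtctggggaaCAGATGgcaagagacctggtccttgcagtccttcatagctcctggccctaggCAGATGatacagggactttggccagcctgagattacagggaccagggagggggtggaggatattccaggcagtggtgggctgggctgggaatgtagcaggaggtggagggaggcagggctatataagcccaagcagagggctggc

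Tnni1 had 4 E-boxes and Tnnc1 had 2; the E-box reads the same on both strands in these letters, and 66.2% of 32851 promoter windows of that length hold at least 1. Neither window held the letters TATAAA, which 12.4% of windows hold on either strand. Near letters, such as the tatataa close to the end of the Tnnc1 window, were not searched for. These matches describe letters only.

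Slow myosin genes gave several patterns. Myh7, the slow myosin heavy chain, was at 9.41, 10.64 and 11.10 in overloaded wildtype and 7.50, 7.76 and 8.33 in Mstn-/- muscle, 6.3-fold. Untreated wildtype arrays lay at 8.98 to 10.63 for Myh7, above those of Mstn-/- and overlapping those of overloaded wildtype muscle. Myl2, the slow regulatory light chain, was 6.62-fold higher in overloaded wildtype muscle, but its overloaded mean differed from that of untreated wildtype muscle by only 0.01, which did not pass the test. Its level in Mstn-/- muscle was 6.58-fold below untreated wildtype. Myl3, another slow light chain, was below untreated wildtype in both groups, by -2.44 in Mstn-/- and -0.96 after overload. So the direct difference of Tnni1 had a part on each side of untreated wildtype muscle and that of Myl2 only on the Mstn-/- side, by these values. Myh7b was alike as deposited, although it passed the test at 0.16 under both other scalings.

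Slow calcium-handling genes were higher in overloaded wildtype muscle: Atp2a2, the slow calcium pump, 5.32-fold, and Casq2, the slow calsequestrin, 4.74-fold. Over the whole calcium-handling list 22 of 35 genes were higher in Mstn-/- and 10 in overloaded wildtype muscle. Mrln, a micropeptide that inhibits the calcium pump, was at 10.02, 10.36 and 10.47 in Mstn-/- against 8.13, 8.31 and 8.60, 4.02-fold higher. Jph1, which ties the fibre's surface tubules to its calcium store, was also higher in Mstn-/- muscle, by 1.54. Pln, phospholamban, was 1.2-fold higher in Mstn-/- muscle, the 1 slow-fibre gene that was, and no longer passed without Mstn-/- replicate 2 (0.22) or without overloaded wildtype replicate 3 (0.22).

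The largest differences of the fast-fibre list were those of Eya1, a co-activator of the fast programme (3.51-fold higher in Mstn-/-), and Gpd1, a glycerol phosphate dehydrogenase, at 1.78; Myoz1, which ties signalling to the Z-disc, followed at 1.19. Myh4, the heavy chain of the fastest fibres, was at 13.54, 13.58 and 13.61 in Mstn-/- and 12.003, 12.38 and 12.77 in overloaded wildtype muscle, 2.27-fold. Pvalb, the calcium buffer parvalbumin, was 2.09-fold higher in Mstn-/-, Actn3, the actinin of fast fibres, 1.9-fold and Tnni2, fast troponin I, 1.45-fold. Myh2, the heavy chain of fast oxidative fibres, was the other way, 1.54-fold higher in overloaded wildtype muscle, as was Myh1, 1.19-fold. Myl1, a fast light chain present in all these fibres, was alike near the top of the scale.

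Of the list of developmental contractile genes 11 of 15 were higher in overloaded wildtype muscle and 0 in Mstn-/-, with a median of -1.27. The 11 include the smooth muscle actin Acta2, the non-muscle myosin genes Myh9, Myh10 and Myl6, and the load-responsive genes Ankrd1 and Xirp1, and the embryonic actin Actc1 did not pass the test at -0.04. Myh3, embryonic myosin heavy chain, was at 10.62, 10.67 and 11.56 against 6.59, 6.82 and 7.13, 16.4-fold (adjusted p = 2.6e-17). Tnnt2, the cardiac troponin T of immature fibres, was 4.87-fold higher. Both groups of arrays were far apart for each. Nrap, which acts in the assembly of myofibrils, was alike. Tpm3, slow tropomyosin, was 2.77-fold higher on its brightest probe set, but its 4 probe sets ran from -1.47 to 0.03.

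**Figure D4:**
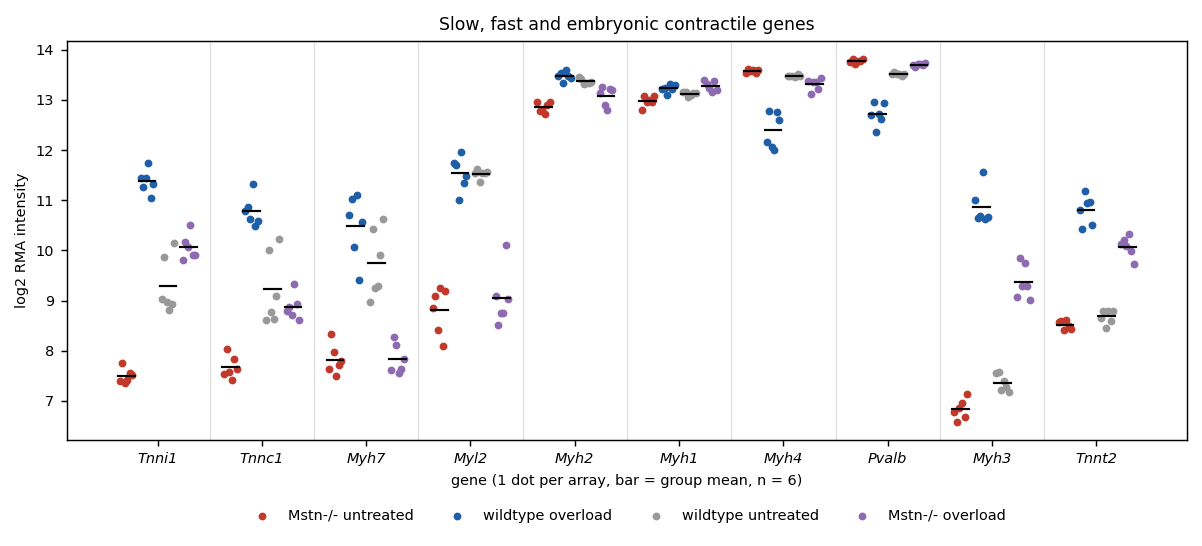
Log2 RMA intensity (y axis) of slow, fast and embryonic contractile genes (x axis), 1 dot per array and a bar at the mean of 6 arrays, for all 4 groups. Slow and embryonic genes lie lower in untreated Mstn-/- muscle than in overloaded wildtype muscle, and Myh4 and Pvalb lie higher.

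In IGF signalling both ligands were higher in overloaded wildtype muscle, and the intracellular members were mixed. Of 22 genes, 8 were higher in Mstn-/- (34.5% of all genes), 9 in overloaded wildtype muscle (31.5%) and 5 were alike (29.8%). These counts were not far from the shares over all genes, and the median was 0.01. Igf1, the ligand, was at 11.20, 11.31 and 11.82 against 8.34, 8.55 and 9.02, 6.86-fold higher in overloaded wildtype muscle (adjusted p = 5.6e-15). Igf2 was 5.39-fold and the binding protein Igfbp4 6.42-fold higher there. Against untreated wildtype muscle Igf1 was 1.49-fold lower in Mstn-/-, and Igf2 was higher there by 0.38.

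The intracellular members went both ways. Pik3r1, the regulatory subunit of PI3 kinase, was at 11.35, 11.57 and 11.71 in Mstn-/- and 10.15, 10.26 and 10.56 in overloaded wildtype muscle, 2.37-fold higher in Mstn-/-. Akt2, the kinase of insulin-responsive tissues, was 1.85-fold higher, whereas its relative Akt1 was higher in overloaded wildtype muscle, with a difference of -0.66. Irs1, the docking protein between receptor and PI3 kinase, was alike, with an interval of -0.24 to 0.12. Of 19 mTOR pathway genes 14 were higher in Mstn-/- and 2 in overloaded wildtype muscle (median 0.45). Rragd, a GTPase that brings mTOR to the lysosome, was 3.27-fold higher in Mstn-/-. Several inhibitors of mTOR were higher there too, Ddit4 by 1.07, Sesn1 by 0.82, Tsc1 by 0.81 and Deptor by 0.62. Sesn3, another inhibitor, was 2.21-fold higher in overloaded wildtype muscle.

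Genes of muscle protein breakdown were higher in Mstn-/- muscle. Of 21 atrophy and ubiquitin ligase genes 14 were higher there and 3 in overloaded wildtype muscle (median 0.44). Fbxo32, the muscle ubiquitin ligase atrogin-1, was at 12.17, 12.37 and 12.60 in Mstn-/- against 9.74, 10.30 and 10.69, 4.34-fold higher. Trim63, the ligase MuRF1, was at 10.89, 11.03 and 11.12 against 8.63, 9.22 and 9.33, 3.69-fold higher. Klf15, a glucocorticoid-responsive regulator of amino acid use, was 2.64-fold higher. All 3 were above untreated wildtype in Mstn-/- and below it after overload: Trim63 by 0.80 and -1.09, Fbxo32 by 0.77 and -1.35, and Klf15 by 0.25 and -1.15.

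The proteasome followed, with 25 of 30 genes higher in Mstn-/- and 1 in overloaded wildtype muscle (median 0.36). Psma6, a core subunit, was 1.94-fold and Psmd2, a subunit of the cap, 1.73-fold higher. Ribosomal protein genes had 1 of 24 higher in Mstn-/- and 11 in overloaded wildtype muscle, with a median of -0.08 that turned positive with the array medians made equal. Rpsa was 1.92-fold higher in overloaded wildtype muscle on its brightest probe set, while its 5 probe sets ran from -0.94 to 0.08. Of 22 ribosome biogenesis genes 9 were higher in Mstn-/- (34.5% of all genes) and 7 in overloaded wildtype muscle (31.5%), with a median of 0.05. That list was thus not far from the shares over all genes. Myc, a driver of ribosome production, was 1.58-fold higher after overload, with overlap between the groups. Rrn3 and Polr1b of the same list were higher in Mstn-/-, by 0.77 and 0.76.

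Genes of satellite cells and muscle formation leaned to overload, 17 of 29 (31.5% of all genes) against 8 in Mstn-/- (34.5%), with a median of -0.21. Mymk, the fusion protein myomaker, was at 9.42, 9.79 and 9.91 against 7.74, 7.89 and 8.03, 3.6-fold higher in overloaded wildtype muscle. Ncam1, an adhesion molecule of satellite cells and of denervated fibres, was 2.91-fold higher. The groups were apart for both. Myf6, the myogenic factor of mature fibres, was 1.71-fold higher in Mstn-/- muscle. Satellite cell genes of the list went both ways. Pax7, Myf5 and Vcam1 were higher in overloaded wildtype muscle, at -0.21, -0.23 and -1.52. So were Sdc3 (-1.27), Megf10 (-0.41), Itga7 (-0.72), Cdh2 (-1.53) and Heyl (-0.50). Cdh15, Met, Pax3 and Myod1 were higher in Mstn-/-, at 0.33, 0.44, 0.21 and 0.42, and Calcr was alike.

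Genes of energy metabolism were higher in Mstn-/- than in overloaded wildtype muscle, on both the aerobic and the glycolytic side. In oxidative phosphorylation 36 of 42 genes were higher in Mstn-/- and 0 in overloaded wildtype muscle, with a median of 0.42. Ndufa9, of complex I, was at 11.18, 11.65 and 11.71 against 9.95, 10.46 and 10.73, 2.21-fold, and Cox4i1, of complex IV, was 1.82-fold higher. In the citric acid cycle 19 of 21 genes were higher in Mstn-/- and 0 in overloaded wildtype muscle (median 0.51), with Sucla2, a succinyl-CoA ligase subunit, at 2.16-fold and Pcx, pyruvate carboxylase, at 2.23-fold. Against untreated wildtype muscle Ndufa9 and Sucla2 lay lower after overload, by -0.94 and -0.95, and did not pass the test in Mstn-/-, at 0.20 and 0.15. Pcx was lower than untreated wildtype in both. The lists as a whole lay lower in Mstn-/- than in untreated wildtype muscle. Array means over the citric acid cycle list were 11.33 to 11.43 in Mstn-/- and 11.48 to 11.66 in untreated wildtype muscle. Those over oxidative phosphorylation were 11.61 to 11.72 and 11.71 to 11.85, with slight overlap.

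Fat oxidation had 22 of 29 genes higher in Mstn-/- and 2 in overloaded wildtype muscle (median 0.51). Slc27a1, a fatty acid transporter, was 1.9-fold and Decr1, a reductase for unsaturated fatty acids, 1.83-fold higher in Mstn-/-. Slc27a1 was below untreated wildtype in both groups, by -0.45 in Mstn-/- and -1.38 after overload. Array means over the list were 10.25 to 10.40 in Mstn-/- and higher, 10.56 to 10.74, in untreated wildtype muscle. Fabp4, a fatty acid carrier of fat and vessel cells, was 1.5-fold higher in overloaded wildtype muscle. Acadl, an acyl-CoA dehydrogenase, was alike at medians of 10.41 in both groups, and lower than the untreated wildtype mean of 10.83.

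Glycolysis and glycogen genes also leaned to Mstn-/- muscle. In glycolysis 15 of 20 genes were higher in Mstn-/- and 4 in overloaded wildtype muscle (median 0.51). Slc16a3, the lactate exporter of fast fibres, was at 11.67, 11.78 and 11.90 against 9.51, 10.03 and 10.19, 3.5-fold higher in Mstn-/-. Pgam1, the general form of a glycolytic mutase, was 1.94-fold higher in overloaded wildtype muscle. In glycogen metabolism 14 of 22 genes were higher in Mstn-/- and 6 in overloaded wildtype muscle (median 0.63), the latter 3 with the array medians made equal.

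Among the glycogen genes, Phka1, the muscle subunit of the kinase that starts glycogen breakdown, was at 12.48, 12.53 and 12.59 against 9.93, 10.54 and 10.82, 4.13-fold higher in Mstn-/-. Ppp1r3a, the muscle subunit that targets a phosphatase to glycogen, was 3.88-fold higher. Genes for both breakdown and storage were thus higher. Pgm2 was 2.83-fold higher in overloaded wildtype muscle.

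The regulators of mitochondrial genes were mixed. Of 26 PGC-1, PPAR and ERR genes 15 were higher in Mstn-/- and 6 in overloaded wildtype muscle. Ppargc1a, the coactivator PGC-1alpha, was at 10.24, 10.29 and 10.38 in Mstn-/- against 8.63, 9.24 and 9.64, 2.11-fold higher, and Rxrg, a nuclear receptor, was 3.41-fold higher. Ppargc1b was 1.28-fold higher in overloaded wildtype muscle, with overlap. Nr4a2, an orphan nuclear receptor, was at 9.63, 10.002 and 10.56 in overloaded wildtype and 7.47, 7.995 and 8.14 in Mstn-/- muscle, 4.5-fold.

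Markers of macrophages were higher in overloaded wildtype muscle, 22 of 25 with 1 the other way and a median of -1.74. The mean log2 intensity over the tested markers was 7.83 to 8.12 on the untreated Mstn-/- arrays and 9.24 to 9.83 on the overloaded wildtype arrays. Lyz2, lysozyme, was at 12.24, 12.33 and 12.62 against 10.43, 10.62 and 10.89, 3.33-fold. Laptm5, a lysosomal protein of blood cells, was 4.06-fold and Mrc1, the mannose receptor, 4.03-fold higher; Ms4a7 was 7.91-fold higher and below the low-intensity level in Mstn-/-. Cd163, a scavenger receptor of resident macrophages, was the 1 marker higher in Mstn-/- muscle, 1.51-fold. Lyz2 was also higher in Mstn-/- than in untreated wildtype muscle, by 0.85.

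Complement and interferon genes moved with the macrophage markers, 27 of 28 higher in overloaded wildtype muscle (median -0.94). C1qb, a C1q chain, was 4.54-fold and Cfb, complement factor B, 4.23-fold higher. Of the chemokine and cytokine genes 24 of 32 with a probe set were tested, 18 of them higher in overloaded wildtype muscle and 2 in Mstn-/-. Dim members could pass the filter through the group where they were high, so this count does not show a direction. The part that macrophages had in the matrix, IGF and complement results was not tested.

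Other cells of the muscle showed smaller and mixed differences. Of 11 markers of fibro-adipogenic progenitors, the connective-tissue cells of muscle, 6 were higher in overloaded wildtype and 4 in Mstn-/- muscle (median -0.34). Their defining receptor Pdgfra was alike, at 9.45, 9.71 and 9.90 in overloaded wildtype and 9.48, 9.60 and 9.91 in Mstn-/- muscle, both above the untreated wildtype mean of 9.10. Mfap5 was 5.97-fold and Pi16 2.66-fold higher in overloaded wildtype muscle, and Gsn 1.67-fold higher in Mstn-/-. The mean log2 intensity over the markers was 10.25 to 10.54 on the overloaded wildtype arrays and 9.87 to 10.19 on the Mstn-/- arrays.

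Of 13 endothelial markers 10 were higher in overloaded wildtype muscle, with Pecam1 at 1.93-fold, while Flt1, a VEGF receptor, was 1.41-fold higher in Mstn-/-. Smooth muscle and pericyte markers had 9 of 12 higher in overloaded wildtype muscle. Adipocyte markers had 2 of 8 and Schwann cell markers 1 of 6. Of the neutrophil markers 5 of 10 were bright enough to test, 3 of them higher in overloaded wildtype and 1 in Mstn-/- muscle. Their median moved from -0.55 to -0.27 without overloaded wildtype replicate 3. Of the lymphocyte markers 6 of 13 were tested, 4 of them higher in overloaded wildtype muscle (1 of those with the stricter intensity filter). Dim markers could pass the filter through the group where they were high, so these counts do not show a direction for either cell type.

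Of the proliferation genes 20 of 22 with a probe set were tested, 17 of them higher in overloaded wildtype and 2 in Mstn-/- muscle (median -0.77). Dim members could pass the filter through the group where they were high, so this count alone does not show a direction. Mki67, a marker of cycling cells, was at 8.46, 8.66 and 9.06 against 6.38, 6.66 and 6.78, and Ccna2, cyclin A2, at 8.54, 8.76 and 9.02 against 5.93, 6.40 and 6.66. The arrays did not overlap, but both genes had Mstn-/- means below the low-intensity level, so that the folds of 4.28 and 5.25 are uncertain in size. Which cells were cycling cannot be read from whole muscle.

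A smaller set of genes lay at like levels in both groups and away from untreated wildtype muscle. They were picked after their values had been seen, and both departures are measured from the same 6 untreated wildtype arrays, so they are described and not tested as a set. Pdk4, a kinase that keeps pyruvate out of the mitochondria, was at 12.25, 12.46 and 12.60 in Mstn-/- and 12.24, 12.45 and 12.65 in overloaded wildtype muscle, against an untreated wildtype mean of 13.02. The 2 groups coincided, with an interval of -0.25 to 0.22. Ptpn1, a phosphatase of the insulin receptor, had means above untreated wildtype by 0.61 and 0.62, and Tmem43, a nuclear envelope protein, by 0.59 and 0.59. Lama2, described with the laminins, was above it by 0.37 and 0.36.

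Other genes were far below untreated wildtype muscle in both groups without being alike by the interval. Ostn, the secreted muscle peptide osteocrin, was at 6.98, 7.23 and 7.39 in Mstn-/- and 5.87, 6.67 and 7.55 in overloaded wildtype muscle, with overlap, against 9.51 in untreated wildtype. Ucp3, a mitochondrial carrier of muscle, was 2.06-fold lower in Mstn-/- and 2.37-fold lower after overload, with a direct interval of -0.17 to 0.57; without Mstn-/- replicate 1 the direct difference passed the test at 0.36. Ldhb, the lactate dehydrogenase of oxidative fibres, was lower by -1.11 and -1.43, and its direct difference of 0.33 did not pass (adjusted p = 0.073) but did without replicate 2 (0.38), 4 (0.42) or 6 (0.38) of the overloaded wildtype group, and with the array medians made equal (0.41). Lgi1 was dim in both. Nmrk2, a kinase of the NAD pathway, was lower than untreated wildtype in both and 1.77-fold higher in overloaded wildtype than in Mstn-/- muscle.

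**Figure D5:**
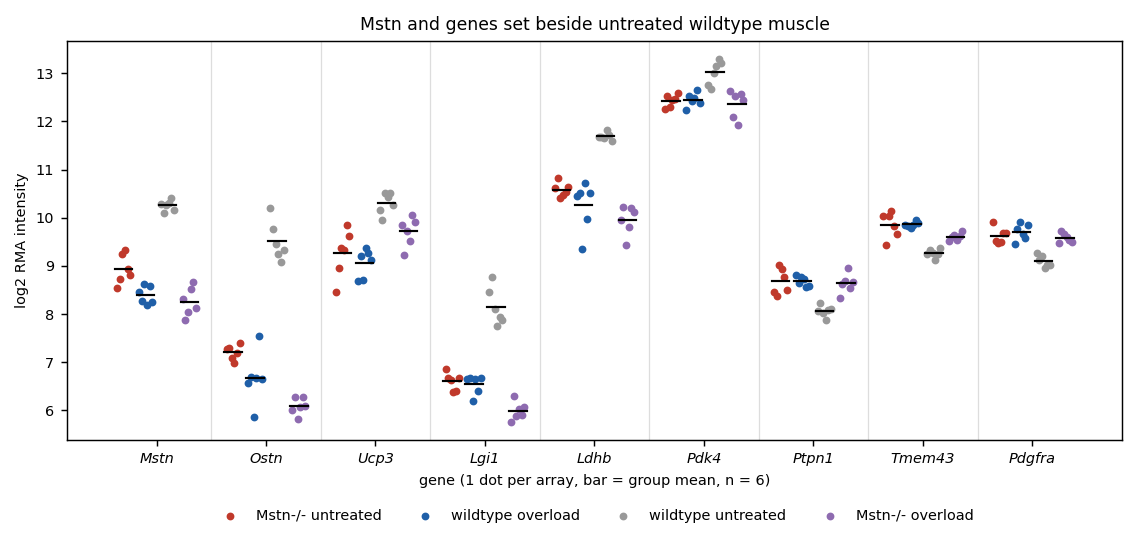
Log2 RMA intensity (y axis) of Mstn and 8 genes set beside untreated wildtype muscle (x axis), 1 dot per array and a bar at the mean of 6 arrays, for all 4 groups. The untreated Mstn-/- and overloaded wildtype bars nearly coincide for Lgi1, Pdk4, Ptpn1, Tmem43 and Pdgfra, while untreated wildtype muscle lies apart.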

How the data were processed

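RNA of the plantaris was labelled for Affymetrix whole-transcript arrays, per the labels' protocols. The deposited values were linear probe-set intensities processed by the authors with RMA, per the submitters' processing notes; the sources used here name no version. They were turned to log2 without a pseudocount. Probe sets with several symbols (1321) or none (11799) were left out, and the brightest probe set stood for a gene. Genes needed 1 group mean above the 30th percentile of probe-set means. Of the 21640 probe sets, 21620 matched the RefSeq gene table.

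The 4 group means were fitted over the 24 arrays with limma 3.58.1 in R 4.3.3, with eBayes, 20 residual degrees of freedom and Benjamini-Hochberg adjustment; the median SE of a direct difference was 0.067. In simulated data with known answers for this comparison (14499 genes, 200 changed), 64.8% of changes of 0.3 and 99.6% of changes of 1 were found. Of the simulated calls 5.68% were false. In the real data 9568 genes passed, so these rates describe a setting with far fewer changed genes. The number of arrays limits the precision.

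The members and gene lists were chosen with earlier results of these data known. Named genes are a fixed list of pathway genes, the 15 largest differences in each direction among non-overlapping genes with an established symbol, and up to 3 members of each list per direction with the smallest adjusted p plus up to 2 bright alike members; Meg3, Rian, Dlk1, Pdk4, Ptpn1, Tmem43, Pdgfra, Lgi1, Ldhb, Tnnc1, the list members given as exceptions or further examples (Wfikkn2, Fstl3, Wfikkn1, Acvr1c, Bambi, Akt1, Ddit4, Sesn1, Tsc1, Deptor, Gpd1, Myoz1, Actc1, Rtl1, Dio3) and the genes of the closing observations were added after their values were seen. Pax7, Myf5, Cdh15, Pax3, Myod1, Calcr, Sdc3, Megf10, Itga7, Cdh2, Heyl and Tgfbr1 were likewise named after their values were seen. Same-numbered arrays of the 2 groups did not deviate together, so the numbers were not used as pairs.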

Additional observations from a re-analysis of the deposited data

Results flagged for a closer look

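Single arrays lay far from the other 5 of their group in 25 of 350 gene and group combinations checked, a gap that chance gives in about 1 in 20 groups. Replicate 3 of the overloaded wildtype group, which also stood apart on the first principal component (54.8), accounted for most of these in its group. It was the highest array for Tgfbr2 (10.92), Sfrp2 (12.47), Tpm3 (11.62), Igf1 (11.82), C1qb (11.77) and Cfb (9.84), and the lowest for Tnni2 (12.14), Eya1 (7.97), Trim63 (8.63), Klf15 (8.16) and Psmd2 (10.64). In each of these the array lay farther from the untreated Mstn-/- group than its group members did.

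Replicate 1 of the untreated Mstn-/- group was the highest array for Tgfbr2 (9.43), Bmp1 (9.51), Col6a3 (9.17) and Mmp14 (8.80) and the lowest for Ndufa9 (11.18) and Rxrg (10.12); it was also the highest for Runx1 (8.40). The remaining far arrays were replicate 2 of the overloaded wildtype group for Mettl21e (5.54) and Mymk (9.42), replicate 5 of that group for Mss51 (9.22), replicate 4 of that group for Slc38a1 (8.98), replicate 4 of untreated Mstn-/- for Dhrs7c (11.33) and replicate 3 of untreated Mstn-/- for Rpsa (10.11) and Deptor (10.30).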

How the results depend on the processing

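The direct comparison was repeated under 22 other settings. The counts of genes that passed the test, in either direction and at 2-fold, stayed within 1.5 times their values in all of them. Leaving out each array in turn gave 9180 to 9582 genes that passed, 4738 to 5072 higher in Mstn-/-, 4442 to 4531 higher in overloaded wildtype muscle, and 1268 to 1413 at least 2-fold apart. The number alike within 1.2-fold, 4318, was 6883 without the intensity filter and 2548 with the stricter one, since these change how many dim genes are tested. Adam9 reversed, to -0.11, with the arrays quantile normalized once more; the cause was not tested. With the replicate block (the replicate number as a covariate) 9520 genes passed, Ldhb among them (adjusted p = 0.033); only 1 of 6 same-numbered pairs correlated above 0.1 and none correlated best with its own number. In the other scalings the split of genes that passed moved to 64.1% and 58.5% higher in Mstn-/-, and the medians of 47 of 50 lists kept their sign. Array intensity limits the hairpins and other dim genes.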

Other observations

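Other gene groups were divided between the 2 muscles. In the amino acid transport and polyamine list 15 of 29 genes were higher in untreated Mstn-/- and 11 in overloaded wildtype muscle: Slc43a1, a transporter of large neutral amino acids, by 2.24 and Glul, glutamine synthetase, by 2.00 in Mstn-/-, and Slc38a1, a glutamine transporter, with a difference of -1.75, in overloaded wildtype muscle. Of 32 integrin and dystrophin complex genes 21 were higher in overloaded wildtype muscle, led by Itga5, the fibronectin receptor subunit, and 8 in Mstn-/-, among them Sgca, a sarcoglycan of the fibre membrane, by 1.06. Immediate early and heat shock genes had 18 of 27 higher in overloaded wildtype and 1 in Mstn-/- muscle.

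Genes of the nerve contact were split as well. Chrne, the adult acetylcholine receptor subunit, was higher in Mstn-/- by 1.32, whereas Runx1, a transcription factor of denervated fibres, was lower there by a log2 difference of -2.69 and Myog, myogenin, by -1.31. Among 17 clock genes 11 were higher in Mstn-/- and 3 in overloaded wildtype muscle, with Rora higher in Mstn-/- by 1.16, Arntl by 0.86 and Dbp at -0.70; the sources used here do not say at which hour the muscles were taken.

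Of 5952 tested probe sets without a gene symbol, 1525 were higher in Mstn-/- and 1079 in overloaded wildtype muscle, 207 and 109 of them at least 2-fold.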
